A study of Mus musculus with 12 samples.

Results

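The mitochondrial ribosomal protein genes were taken as every row whose symbol is Mrpl or Mrps followed by a number and at most 1 letter. The deposited tables held 76 such genes among 22549 symbols, 47 named for the large subunit (Mrpl) and 29 named for the small subunit (Mrps). All 76 were listed once in each of the 12 libraries, all reached 1 FPKM (fragments per kilobase of transcript, scaled to the mapped reads of the library) in every library, and all 76 were tested.

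RNA came from cultured spermatogonial stem cells of the mouse (mSSC), which renew themselves and give rise to sperm, taken from the testes of wild-type DBA/C57 F1 males aged 5 to 7 days. In the treatment experiment, cells plated on laminin were exposed for 24 h to vehicle or to retinoic acid (RA) at 100 nM. Another group had the same RA dose together with cycloheximide (CHX, a blocker of cytosolic translation) at 0.25 mg/ml. Cycloheximide alone was not among the groups, so a difference between RA with CHX and RA cannot be told apart from an action of CHX that needs no RA. The induction experiment set untreated mSSC beside GFP-labelled mSSC induced on mitomycin-inactivated Sertoli cells of pups. The GFP+ c-KIT+ cells sorted on day 3 were named induced differentiating spermatogonia (idSG), and the GFP+ c-KIT- cells sorted on day 6 carry the name induced spermatocytes (iSC). There were 2 libraries in each of the 6 groups. Nothing in the labels says whether these came from separate cultures or animals, so a p-value here speaks only of the spread among these libraries, which may be technical.

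Mitochondria make a few subunits of the respiratory chain and of ATP synthase on their own ribosome, whose RNAs come from the mitochondrial genome and whose proteins are all encoded in the nucleus, translated in the cytosol and imported. Many of these proteins descend from bacterial ribosomal proteins, and others were added in mitochondria. Spermatogonia are held to depend largely on glycolysis, and spermatocytes more on mitochondrial respiration. A few names mislead. Mrps18a and Mrps30 proteins sit in the large subunit of the mammalian ribosome, and the Mrps36 protein is now known as a subunit of the alpha-ketoglutarate dehydrogenase complex. Counts, sums and medians of the 2 subunits follow the gene names, these 3 included.

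Promoters of nuclear genes for mitochondrial proteins are known for sites of NRF1, of the ETS factor GABP and of YY1. RefSeq promoter windows of GRCm38.p6, each reaching from upstream of a gene's start to just past it, were found for 67 of the 76 genes, as 73 windows. The letters GCGCA, any base and GCGC in a row (NRF1) stood on either strand in 16.4% of these windows and in 4.6% of all 32851 windows. CCGGAAG (ETS) stood in 32.9% and 8.86%, AAGATGG followed by CGG (YY1) in 6.85% and 0.852%, and CACGTG (E-box) in 9.59% and 7.15%. At least 1 of the 4 stood in 56.2% of the windows and in 18.8% of all. The median GC content was 58.4% in these windows and 52.4% in all, and its part in these shares was not tested. A match is a description of letters, not a bound site. Shares are of windows, not of genes. Overlapping windows of Mrpl2 each held its E-box, at -131, -139 and -147 from their starts. This gene thus counts more than once in the E-box share. The 150 bases upstream shown here belong to 4 genes that the results turn on, with matches in capitals. Mrpl45 (chr11:97315566-97315715, plus strand) has 2 NRF1 matches, Mrpl34 (chr8:71464776-71464925, plus strand) an ETS match, Mrpl2 (chr17:46646071-46646220, plus strand) an E-box, and Mrpl41 (chr2:24975099-24975248, minus strand) none of the 4 in this stretch.
Mrpl45: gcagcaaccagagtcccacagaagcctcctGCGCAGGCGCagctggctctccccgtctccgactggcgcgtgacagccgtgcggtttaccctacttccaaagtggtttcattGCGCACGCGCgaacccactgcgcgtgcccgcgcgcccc
Mrpl34: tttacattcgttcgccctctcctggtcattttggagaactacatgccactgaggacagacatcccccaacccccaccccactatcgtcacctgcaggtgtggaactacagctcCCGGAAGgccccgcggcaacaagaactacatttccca
Mrpl2: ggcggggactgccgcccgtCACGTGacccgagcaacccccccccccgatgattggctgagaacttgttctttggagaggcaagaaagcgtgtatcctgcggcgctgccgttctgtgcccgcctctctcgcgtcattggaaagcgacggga
Mrpl41: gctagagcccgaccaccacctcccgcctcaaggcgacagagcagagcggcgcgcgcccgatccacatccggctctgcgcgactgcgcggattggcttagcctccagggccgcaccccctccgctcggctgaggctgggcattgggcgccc

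Summed FPKM per library lay between 459580 and 540064, and 11872 to 12510 genes reached 1 FPKM. The absolute depth is unknown. The commonest ratio of the lowest values between libraries put the others at 82.8% to 99.5% of the depth of the first library of their experiment. Summed stem and progenitor markers (7 genes) went from 515 to 536 FPKM in vehicle to 294 to 303 with RA and 72.4 to 73.3 in RA with CHX, and from 456 to 488 in mSSC to 60.0 to 68.1 in idSG. The 2 iSC libraries stood apart from each other, at 21.8 and 125 FPKM for these markers and at 156 and 389 FPKM for Kit, Stra8 and Sohlh1 together. The latter sum stood at 1331 to 1658 FPKM in idSG against 73.2 to 89.5 in mSSC, where Kit is a sorting marker. Meiotic genes (5: Sycp1, Sycp3, Dmc1, Spo11 and Hormad1), chosen after seeing the data, summed to 970 and 589 FPKM in the iSC libraries and to 217 and 214 in mSSC. These sums were 288 to 381 in idSG, 171 to 185 in vehicle, 208 to 220 with RA and 288 to 322 in RA with CHX. Germ cell markers (5: Ddx4, Dazl, Dppa3, Mael and Sycp3) summed to 959 to 979 FPKM in mSSC, 853 to 1179 in idSG and 1046 to 1407 in iSC. In iSC against mSSC 1 of these 5 was higher and 2 were lower.

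The ribosomal protein messages were a small share of the transcriptome. The 76 genes held 0.701% to 0.870% of the FPKM of a library. Averaged over the 12 libraries, the large-subunit genes ran from Mrpl19 at 8.53 FPKM to Mrpl52 at 192 FPKM, with a median of 42.8. The small-subunit genes ran from Mrps25 at 11.5 FPKM to Mrps16 at 169 FPKM, with a median of 38.9. Most single genes ranged further. The highest was more than 1.5 times the lowest of the 6 group means in 29 of 47 Mrpl and 19 of 29 Mrps genes, and more than 2 times in 12 and 4, with Mrpl33 (2.94 times) at the top and Mrps17 (1.15 times) at the bottom. These ranges cross the 2 experiments, which may have been normalized apart. That of Mrpl33 runs from 62.5 FPKM in RA with CHX to 184 in iSC.

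Summed Mrpl messages were 2390 and 2360 FPKM in vehicle, 2280 and 2141 with RA, and 2571 and 2620 in RA with CHX. Summed Mrps messages were 1440 and 1430, 1367 and 1342, and 1585 and 1650 FPKM in the same order. Both sums in FPKM were thus lowest with RA and highest in RA with CHX, with no overlap between the 3 groups. As a share of the summed FPKM of a library, the 76 genes held 0.737% and 0.702% in vehicle and 0.744% and 0.731% with RA. The share was 0.864% and 0.870% in RA with CHX. By share RA thus overlapped vehicle and was not lowest, and RA with CHX stood above both. In the induction experiment the Mrpl sums were 2372 and 2418 FPKM in mSSC, 2809 and 2389 in idSG, and 2112 and 2287 in iSC. The Mrps sums were 1423 and 1455, 1569 and 1310, and 1217 and 1246 FPKM. Both sums were lowest in iSC, and idSG overlapped mSSC. The libraries of idSG stood apart from each other, with 72 of 76 genes higher in replicate 1 by a median log2 of 0.22, against 54.9% of all genes and a median of 0.04. The ratio of the Mrpl to the Mrps sum was 1.59 to 1.67 in the treatment libraries and in mSSC, and 1.73 to 1.84 in idSG and iSC.

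**Figure D1:**
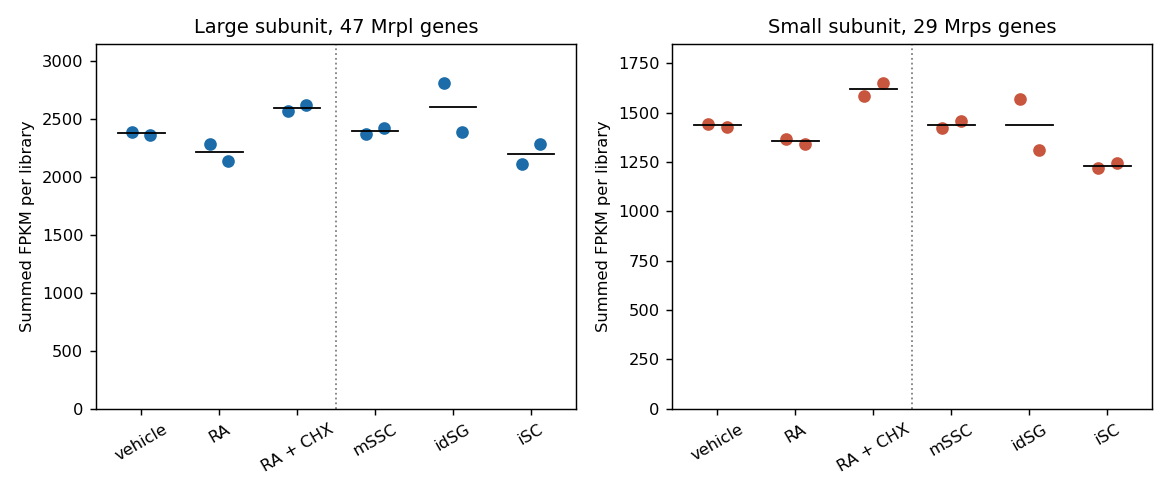
Summed FPKM of the 47 Mrpl genes (left) and the 29 Mrps genes (right) in each library, with points for libraries and bars for the mean of 2. RA with CHX stands highest of the treatment groups at 2571 and 2620 (Mrpl) and 1585 and 1650 (Mrps), iSC stands lowest of the induction groups, and the dotted line parts the experiments.

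The first comparison asked how messages of the mitochondrial ribosome stand after 24 h of retinoic acid, the signal that makes spermatogonia differentiate. Of the 76 genes, 26 fell and 6 rose (limma, adjusted p under 0.05 over 12339 genes), where 29.9% of all genes tested fell and 22.8% rose. The changes were small, with a median log2 fold change of FPKM + 1 of -0.08 over the 76 genes and -0.02 over all genes. Among Mrpl genes 18 fell and 3 rose, and among Mrps genes 8 fell and 3 rose. Quantile normalization gave 15 genes lower and 15 higher, with 5 Mrps lower and 8 higher, and a spread estimated from all 12 libraries left 3 lower and 0 higher (8 lower and 0 higher at an unadjusted p under 0.05), so neither the balance of directions nor the count held.

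Mrps6, a small-subunit protein with a bacterial homologue, stood at 80.4 and 86.3 FPKM in vehicle and 50.7 and 54.2 with RA, a log2 fold change of -0.66 ± 0.05 SE (adjusted p = 7.72e-05). It shares exons on its strand with Slc5a3, the myo-inositol transporter gene, whose log2 fold change was -0.43, and reads of this pair may have been split between them. Mrps27, which carries RNA-binding repeats, stood at 23.3 and 24.1 FPKM in vehicle and 17.9 and 15.1 with RA, a log2 fold change of -0.50 ± 0.07 SE (adjusted p = 0.00126). Mrpl34, a large-subunit protein with a bacterial homologue, stood at 58.9 and 58.6 FPKM in vehicle and 43.7 and 39.8 with RA, a log2 fold change of -0.48 ± 0.05 SE (adjusted p = 0.000243). In all 3 genes both RA libraries lay below both vehicle libraries. These 3 calls held in every alternative, including the spread from all 12 libraries.

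Other genes that fell were Mrpl23, whose bacterial relative lies at the exit of the peptide tunnel (-0.41 ± 0.03 SE), and Mrpl12, part of the stalk that recruits translation factors (-0.35 ± 0.06 SE). Mrpl12 stood at 70.3 and 70.3 FPKM in vehicle and 58.8 and 51.1 with RA. Mrps18b (-0.33 ± 0.03 SE), Mrps36 (-0.26 ± 0.03 SE), Mrps15 (-0.26 ± 0.05 SE) and Mrps30 (-0.15 ± 0.03 SE) also fell. Mrps12, the decoding-centre protein whose bacterial relative is the target of streptomycin resistance mutations, fell by 0.13 on the log2 scale, a call lost without RA replicate 2 or vehicle replicate 1. The genes that rose were Mrps28 (0.26), Mrps25 (0.23), Mrpl51 (0.15), Mrpl10 (0.14), Mrpl48 (0.13) and Mrps2 (0.12). The rises of Mrps28, Mrps2 and Mrpl48 were lost on leaving out several of the single libraries. Mrpl52, the most abundant large-subunit message, stood at 219 and 231 FPKM in vehicle and 235 and 190 with RA, and the groups overlapped.

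The related lists were set beside all genes tested, of which 29.9% fell and 22.8% rose with RA. Cytosolic ribosomal protein genes fell in 70 of 84 members with a median log2 fold change of -0.25. Quantile normalization left 14 of them lower and 9 higher. Nuclear genes of oxidative phosphorylation fell in 14 and rose in 5 of 77, and quantile normalization gave 3 lower and 24 higher. Among mitochondrial translation factors 6 of 16 fell (37.5%) and 3 rose (18.75%). Nrf1, which encodes a transcription factor for nuclear genes of mitochondria, went from 29.9 and 28.9 FPKM to 25.1 and 24.6 (-0.23 ± 0.04 SE, adjusted p = 0.00212). This call of Nrf1 was lost with the spread of all 12 libraries. Tfam, the packaging factor of mitochondrial DNA, stood at 19.9 and 19.2 FPKM in vehicle and 18.9 and 19.6 with RA.

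**Figure D2:**
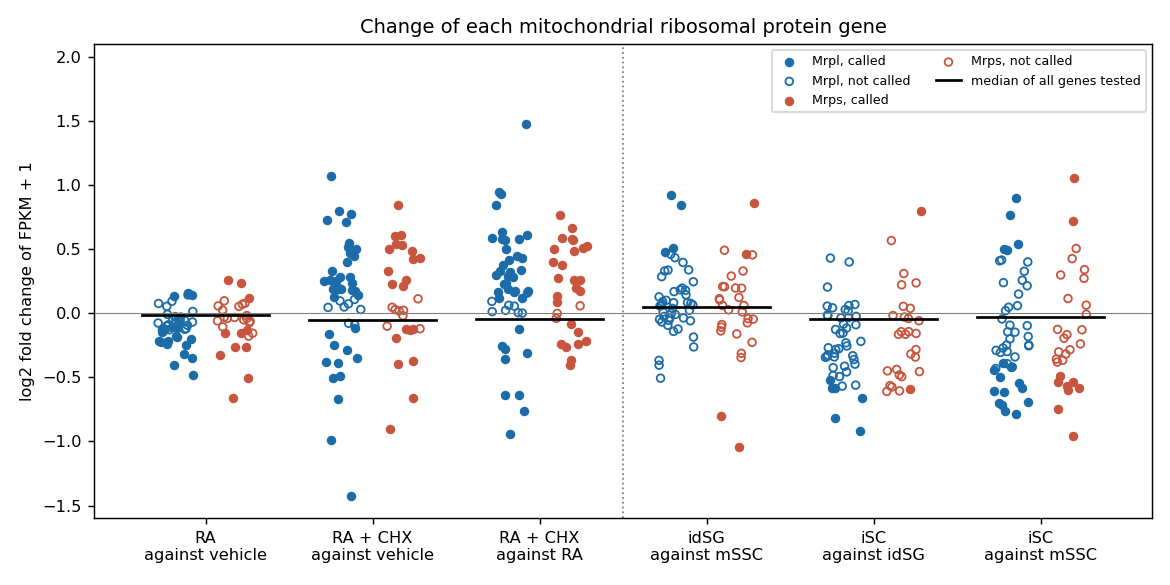
Log2 fold change of FPKM + 1 of each of the 76 genes in the 6 comparisons, with Mrpl in blue and Mrps in red. Filled points passed an adjusted p of 0.05 in limma, open points did not, and black bars mark the median of all genes tested. The 3 treatment comparisons share libraries, as do the 3 induction comparisons.

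RA with CHX was set against vehicle and against RA. Against vehicle 40 of the 76 genes rose and 20 fell, where 36.1% of all genes rose and 43.2% fell. Their median log2 fold change was 0.16 over the 76 genes and -0.05 over all genes. Against RA 48 rose and 17 fell, where 35.1% of all genes rose and 42.5% fell, with medians of 0.19 and -0.05. By subunit, 30 of 47 Mrpl and 18 of 29 Mrps genes rose against RA, and 9 and 8 fell. Relative to the median of all genes, the 76 stood 0.24 higher on the log2 scale against RA as deposited, 0.25 higher after median-ratio scaling and 0.12 higher after quantile normalization. The 2 comparisons share the libraries of RA with CHX, and the RA libraries stand in the first treatment comparison too.

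The largest rise was that of Mrpl23, from 39.4 and 39.5 FPKM in vehicle and 29.6 and 29.5 with RA to 85.2 and 82.9 in RA with CHX. Its log2 fold change was 1.48 ± 0.03 SE against RA (adjusted p = 1.19e-07) and 1.07 ± 0.03 SE against vehicle. The annotation names 1 pseudogene of Mrpl23, 1 of Mrpl48 and 3 of Mrps36, with which reads of these genes may be shared. Mrpl24, whose bacterial relative also lies by the tunnel exit, stood at 66.8 and 64.9 FPKM in vehicle, 60.0 and 58.6 with RA and 113 and 117 in RA with CHX (0.94 ± 0.03 SE against RA). Mrpl45, which is found at the tunnel exit and tethers the ribosome to the inner membrane, stood at 32.9 and 32.9, 29.5 and 27.4, and 55.4 and 54.7 FPKM (0.93 ± 0.04 SE against RA, adjusted p = 1.27e-06). In all 3 genes RA with CHX stood above vehicle and RA stood below it, without overlap.

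Among genes named Mrps, Mrps10 stood at 29.3 and 28.0 FPKM in vehicle, 30.7 and 29.8 with RA and 50.8 and 53.8 in RA with CHX (0.77 ± 0.04 SE against RA). Mrps31 rose by 0.66 ± 0.04 SE and Mrps18b by 0.58 ± 0.03 SE on the log2 scale against RA. Mrps16, the most abundant small-subunit message, stood at 170 and 182 FPKM in vehicle, 195 and 182 with RA and 258 and 280 in RA with CHX (0.51 ± 0.06 SE against RA, adjusted p = 0.000125). Both libraries with CHX lay above the 4 others. Mrps18a rose by 0.57 ± 0.06 SE against RA, while its relative Mrps18c stood at 66.8 and 63.1, 58.1 and 56.3, and 54.9 and 64.8 FPKM and was called in no treatment comparison.

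Further genes filled the same range. Mrpl9, which has a bacterial homologue, stood at 27.4 and 26.6 FPKM in vehicle, 26.0 and 25.3 with RA and 46.0 and 47.8 in RA with CHX (0.85 ± 0.04 SE against RA, adjusted p = 1.18e-06). Mrps11 stood at 24.3 and 24.5, 24.1 and 25.5, and 36.4 and 39.0 FPKM (0.58 against RA). Mrps21, the most abundant small-subunit message of the induction experiment, stood at 144 and 131, 125 and 137, and 186 and 184 FPKM in the treatment libraries (0.50 against RA). In each of these genes vehicle and RA overlapped or lay close together, and both libraries with CHX lay above them. Mrps27, which fell with RA, rose by 0.40 ± 0.07 SE from RA to RA with CHX, where it stood at 21.7 and 22.3 FPKM beside 23.3 and 24.1 in vehicle. Mrps30 stood at 47.5 and 47.2 FPKM in vehicle, 43.1 and 42.0 with RA and 48.2 and 49.6 in RA with CHX (0.20 against RA).

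Other genes went the opposite way. Mrpl34 stood at 21.6 and 21.0 FPKM in RA with CHX, against 58.9 and 58.6 in vehicle, a log2 fold change of -1.42 ± 0.05 SE (adjusted p = 2.98e-07), and of -0.94 ± 0.05 SE against RA. Mrpl41, a protein particular to the mitochondrial ribosome, stood at 15.3 and 14.9 FPKM in vehicle, 13.2 and 12.3 with RA and 7.14 and 7.08 in RA with CHX (-0.99 ± 0.05 SE against vehicle). Both fell with RA and again from RA to RA with CHX. Mrpl33 stood at 102 and 97.3 FPKM in vehicle, 99.4 and 96.0 with RA and 59.1 and 65.8 in RA with CHX (-0.67 ± 0.05 SE against vehicle). Mrpl51 rose with RA, from 58.4 and 55.3 to 63.5 and 63.2 FPKM, and was at 40.1 and 40.5 in RA with CHX. Mrpl43, particular to mitochondria, stood at 49.9 and 48.9, 42.5 and 40.3, and 33.6 and 35.5 FPKM. Mrpl12 was at 55.9 and 54.2 FPKM in RA with CHX, lower than vehicle (-0.35 ± 0.06 SE, adjusted p = 0.0013) and not called against RA. Of the genes named Mrps, Mrps6 fell by 0.90 and Mrps36 by 0.66 on the log2 scale against vehicle, and Mrps12 by 0.40.

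**Figure D3:**
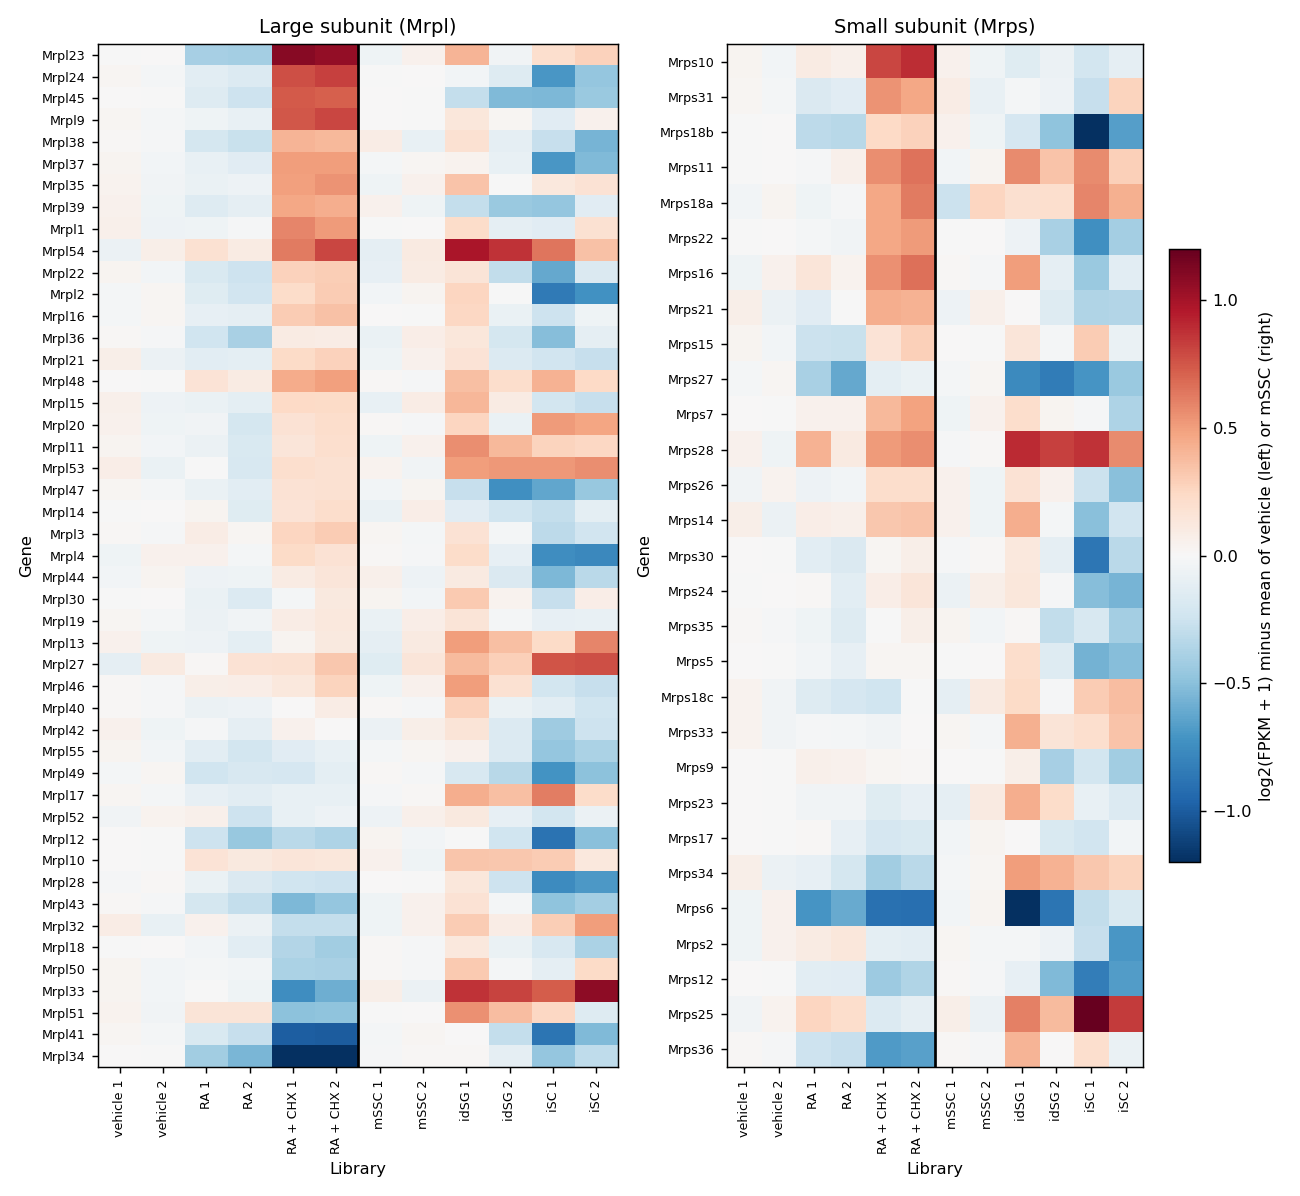
Each row is 1 gene and each column 1 library. Colours give log2(FPKM + 1) minus the mean of the 2 vehicle libraries (left of the black line) or of the 2 mSSC libraries (right of it), and rows are ordered by the change in RA with CHX against RA. Most rows are red in RA with CHX, and Mrpl34, Mrpl41 and Mrps36 at the foot are blue.

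Among the genes with many exons the calls in RA with CHX were higher, while those with few exons were called in both directions. This pattern was chosen after seeing the data, and exon numbers are those of the principal transcript in GENCODE vM21 on GRCm38. All 4 genes with 2 exons (Mrpl34, Mrpl41, Mrpl50 and Mrps12) were lower than with RA, and 2 of the 4 with the spread of all 12 libraries. The share of all genes with 2 exons that were lower was not computed. Of the 27 genes with 6 or more exons, 24 were higher (88.9%) and 0 lower. Of the 7897 tested genes with that many exons, 37.7% were higher and 41.9% lower. The 3 left over were Mrpl42, Mrps9 and Mrps18c. Of the 20 genes with 2 or 3 exons, 8 were higher and 10 lower, or 50.0% lower against 45.5% of all such genes, a share near the background. With the spread of all 12 libraries these counts were 5 higher and 4 lower, and those of the 27 genes were 19 higher and 0 lower. Across the 76 genes Spearman's rho between exon number and log2 fold change was 0.50, against 0.05 across 10825 genes, and rho with transcript length was 0.07. Against vehicle 20 of the 27 genes rose (74.1%) and 0 fell, where 38.8% of all tested genes with that many exons rose and 42.4% fell. With quantile normalization 19 of the 27 were higher and 3 lower than with RA, and on leaving out single libraries 21 to 25 were higher and 0 lower.

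**Figure D4:**
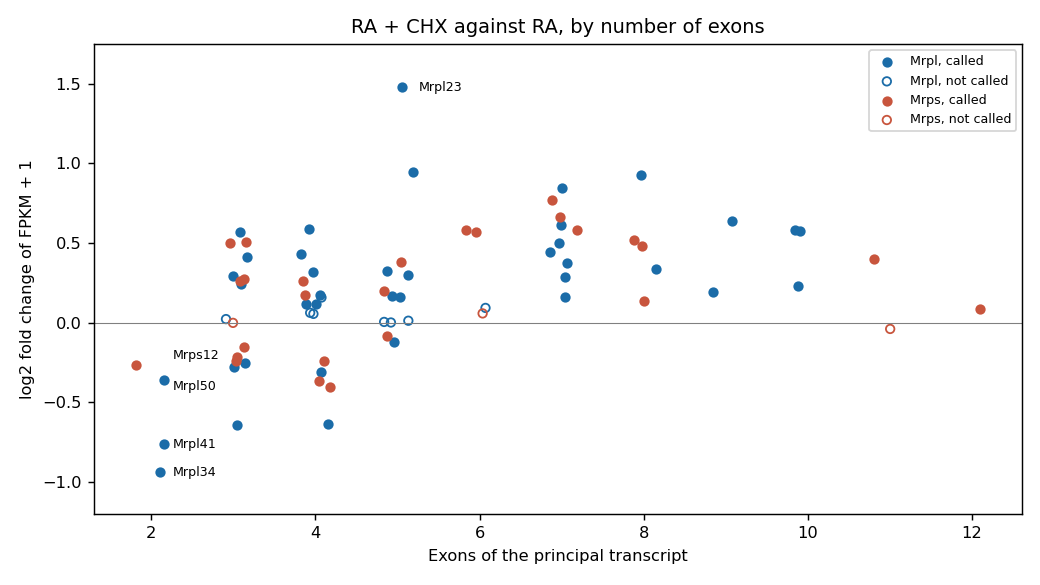
Log2 fold change of FPKM + 1 in RA with CHX against RA for each of the 76 genes (vertical) by the exons of its principal transcript (horizontal, points moved slightly sideways). Filled points were called. The 4 genes with 2 exons lie below 0, and called genes with 6 or more exons lie above it.

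Neighbouring steps of mitochondrial translation were described from lists of their genes. Of all genes tested, 35.1% rose and 42.5% fell in RA with CHX against RA, the shares beside which these counts stand. In RA with CHX against RA, 6 of the 7 other mitoribosomal genes in the files rose and 0 fell, among them Aurkaip1 (0.38) and Dap3, a small-subunit protein that binds GTP (0.23 ± 0.03 SE). The call of Dap3 was lost with the spread of all 12 libraries. Of 19 mitochondrial tRNA synthetase genes tested 14 rose and 1 fell, with Yars2 at 0.80. Of 16 translation factor genes 8 rose and 2 fell. Lrpprc, which stabilises mitochondrial messages, rose by 0.90 ± 0.03 SE and Mtrf1l, a release factor, fell by 0.52 on the log2 scale. Of 23 genes for assembly and rRNA modification 12 rose (52.2%) and 8 fell (34.8%), with Rpusd4 at 0.73 and Mpv17l2 at -1.01. Of 10 genes of mitochondrial DNA and transcription 4 rose (40%, near the share of all genes) and 3 fell (30%). Among them were Ssbp1, the single-stranded DNA binding protein (0.92), and Peo1, the helicase Twinkle (-0.87). Nuclear oxidative phosphorylation genes rose in 56 and fell in 6 of 77, against 42 and 19 with quantile normalization. Cytosolic ribosomal protein genes rose in 29 and fell in 34 of 84 (34.5% and 40.5%), near the shares of all genes. Nrf1 rose by 0.53 ± 0.04 SE against RA (adjusted p = 1.19e-05), to 35.5 and 37.3 FPKM, and Gabpa, the DNA-binding subunit of GABP, fell by 0.18. The call of Gabpa was lost with median-ratio scaling and with the spread of all 12 libraries.

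Both evolutionary classes held genes of either direction. Of the 48 genes with a bacterial homologue 32 rose and 9 fell in RA with CHX against RA, and of the 28 particular to mitochondria 16 rose and 8 fell, with median log2 fold changes of 0.25 and 0.13. The shares that rose were 66.7% and 57.1%, beside 35.1% of all genes. Those that fell were 18.75% and 28.6%, beside 42.5% of all genes. With RA against vehicle 3 rose and 15 fell in the first class, and 3 rose and 11 fell in the second. The shares that fell were 31.25% and 39.3%, where 29.9% of all genes fell and 22.8% rose. The difference between the classes was not tested. The NRF1 and ETS letters stood in windows of genes of both directions. Of all 73 windows 12 held the NRF1 letters, 24 the ETS letters, 5 the YY1 letters and 7 the E-box. Of the 46 windows of genes higher in RA with CHX than with RA, these numbers were 8, 12, 5 and 6. The E-box windows include the overlapping windows of Mrpl2. Of the 16 windows of genes that were lower, 1 held the NRF1 letters and 7 the ETS letters, and none held the YY1 letters or the E-box. Of the 11 windows of genes not called, 3 held the NRF1 letters, 5 the ETS letters and 1 the E-box. The differences between these groups of windows were not tested.

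The genomic layout bears on several values. Exons of 23 of the 76 genes overlap exons of another coding gene, 19 of them on the opposite strand only, and no source used here says whether counting used strand. Mrps25 overlaps Nr2c2, which changed by 0.29 with RA and by -0.44 in RA with CHX against RA, while Mrps25 changed by 0.23 and -0.37. Mrpl43 overlaps Peo1, and in RA with CHX against RA they changed by -0.25 and -0.87. In the same comparison Mrpl24 and Rrnad1, which overlap on opposite strands, changed by 0.94 and 0.36. Mrps34 and Nme3, which share exons on 1 strand, changed by -0.21 and -0.85. Other partners went opposite ways in RA with CHX against RA, as Mrps7 (0.38) with Mif4gd (-0.78), Mrpl14 (0.24) with Tmem63b (-0.58) and Mrpl47 (0.28) with Ndufb5 (-0.33). In idSG against mSSC Mrpl43 changed by 0.08 and Peo1 by -1.13. How reads of overlapping exons were shared between partners was not tested.

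**Figure D5:**
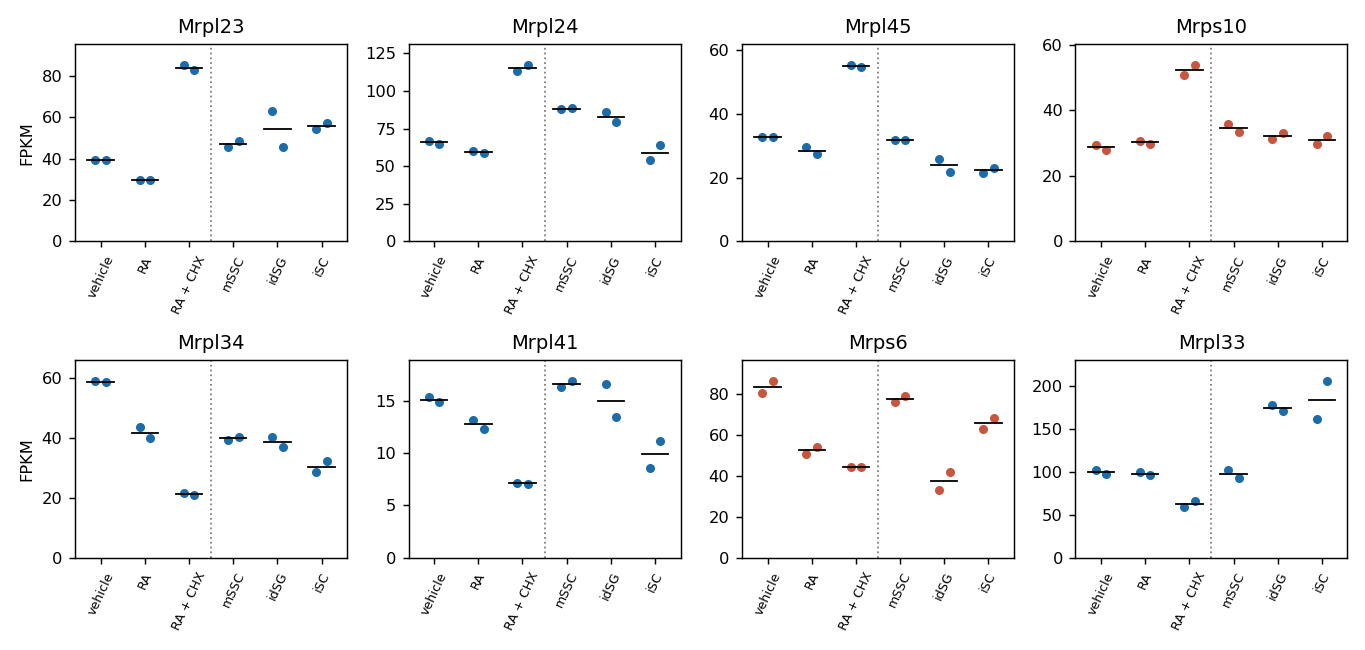
FPKM of 8 genes in each library, with points for libraries and bars for the mean of 2, Mrpl in blue and Mrps in red. Mrpl23, Mrpl24, Mrpl45 and Mrps10 stand highest of the treatment groups in RA with CHX, Mrpl34, Mrpl41 and Mrps6 lowest there, and Mrpl33 is at 161 to 206 FPKM in idSG and iSC against 102 and 92.4 in mSSC.

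Induction was first compared at day 3. In idSG against mSSC 6 of the 76 genes rose and 2 fell, where 17.9% of all 12626 genes tested rose and 10.7% fell, and the medians were 0.06 for the 76 genes and 0.05 for all. Mrpl54, a protein particular to mitochondria, rose from 30.8 and 35.7 FPKM in mSSC to 66.3 and 61.2 in idSG (0.92 ± 0.15 SE, adjusted p = 0.00745). Mrps28 rose from 16.0 and 16.4 to 31.0 and 29.4 FPKM (0.86 ± 0.15 SE) and Mrpl33 from 102 and 92.4 to 178 and 172 FPKM (0.84 ± 0.15 SE). Mrpl53 (0.51), Mrpl11 (0.48) and Mrps34 (0.46) also rose. All 6 rises were lost without mSSC replicate 1.

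Mrps6 fell from 76.1 and 79.3 FPKM in mSSC to 33.1 and 42.0 in idSG (-1.04 ± 0.15 SE, adjusted p = 0.00487), and this call held in every alternative. Slc5a3, which shares its exons, changed by -1.24. Mrps27 fell from 27.9 and 28.7 to 16.3 and 15.3 FPKM (-0.80 ± 0.15 SE), a call lost without mSSC replicate 1, mSSC replicate 2 or idSG replicate 2. Of the related lists in idSG, 16 of 77 nuclear oxidative phosphorylation genes rose, a share of 20.8% beside 17.9% of all genes, and 1 fell, with Ndufa1 at 1.68, and of 10 genes of mitochondrial DNA and transcription 1 rose and 2 fell, with Peo1 at -1.13. Translation factors rose in 0 and fell in 2 of 16, and cytosolic ribosomal protein genes rose in 1 and fell in 0 of 84, where 10.7% of all genes fell. In this sorted material the markers of other cells differed too. Sertoli markers (7 genes) summed to 2.82 and 3.06 FPKM in mSSC, with Fshr at 0, to 88.4 to 207 in idSG and to 167 to 213 in iSC, and 5 of 5 tested rose in each. Leydig markers (4 genes) summed to 2.23 to 2.61 FPKM in mSSC, 35.0 to 73.0 in idSG and 102 to 146 in iSC. Peritubular and fibroblast markers (7 genes) summed to 58.7 to 174 in mSSC, 158 to 219 in idSG and 379 to 507 in iSC. Of the 6 tested, 1 was higher and 1 lower in idSG than in mSSC, and 3 were higher and 1 lower in iSC. Macrophage markers (4 genes) summed to 14.4 to 26.5 FPKM in mSSC, 7.19 to 27.5 in idSG and 14.1 to 15.3 in iSC. Endothelial markers (4 genes) summed to 3.58 to 4.83, 1.95 to 2.77 and 1.98 to 2.30 FPKM in the same order. The part of these other cells in the induction results was not tested. In bulk samples fewer cells of a type and less RNA per cell cannot be told apart.

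From idSG to iSC 7 of the 76 genes fell and 1 rose, where 6.75% of all genes fell and 4.46% rose, with a median log2 fold change of -0.24 over the 76 genes and -0.04 over all. Related lists had medians of -0.25 (cytosolic ribosomal proteins), -0.23 (nuclear oxidative phosphorylation), -0.27 (other mitoribosomal genes) and -0.39 (mitochondrial DNA and transcription). Medians were -0.17 for tRNA synthetases, -0.12 for translation factors and -0.05 for assembly and rRNA modification. Mrpl2, a protein near the catalytic centre, stood at 107 and 89.3 FPKM in idSG and 49.3 and 53.7 in iSC (-0.92 ± 0.14 SE, adjusted p = 0.0198). Mrpl4, which lines the peptide tunnel, stood at 84.7 and 67.7 and at 43.0 and 42.0 FPKM (-0.82 ± 0.14 SE). The other genes that fell were Mrpl28 (-0.66), Mrpl37 (-0.59), Mrpl46 (-0.59), Mrps24 (-0.59) and Mrpl43 (-0.52). Mrps6 rose again to 63.1 and 68.4 FPKM (0.80 ± 0.15 SE). None of these 8 calls held on leaving out every single library, and the count of lower genes was 0 without mSSC replicate 1, mSSC replicate 2, idSG replicate 1 or iSC replicate 1.

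Over the whole induction, iSC against mSSC, 21 of the 76 genes fell and 7 rose, where 25% of all genes fell and 26.2% rose. The median log2 fold change was -0.24 over the 76 genes and -0.03 over all. Mrps18b stood at 91.5 and 84.9 FPKM in mSSC and 36.6 and 55.3 in iSC (-0.96 ± 0.21 SE, adjusted p = 0.00939), a call lost without mSSC replicate 1. Mrpl2 stood at 87.7 and 91.4 and at 49.3 and 53.7 FPKM (-0.79 ± 0.14 SE) and Mrpl4 at 73.2 and 71.9 and at 43.0 and 42.0 FPKM (-0.76 ± 0.14 SE), and both calls held in every alternative. Mrps12 (-0.75), Mrpl28 (-0.72) and Mrpl12 (-0.69) also fell, calls lost without mSSC replicate 1 or mSSC replicate 2. The fall of Mrps30 (-0.59) was lost in 9 of 16 alternatives, among them quantile normalization, the replicate block and leaving out iSC replicate 1. Without mSSC replicate 1 the counts were 2 lower and 2 higher, and without mSSC replicate 2 there were 3 lower. Of the iSC libraries, which stood apart, leaving out replicate 1 gave 12 lower and 6 higher and leaving out replicate 2 gave 20 lower and 9 higher. Quantile normalization gave 17 lower and 14 higher.

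Among genes that were higher in iSC than in mSSC, Mrps25 went from 8.09 and 7.21 to 19.9 and 14.5 FPKM (1.06 ± 0.20 SE, adjusted p = 0.00548), and its opposite-strand neighbour Nr2c2 changed by 1.16. Mrpl33 went from 102 and 92.4 to 161 and 206 FPKM (0.90 ± 0.15 SE). Both held in every alternative. Mrpl27 (0.77), Mrps28 (0.72) and Mrpl53 (0.54) rose as well, with calls lost without mSSC replicate 1 and, for Mrpl53, also without mSSC replicate 2.

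In iSC against mSSC 25% of all genes tested fell and 26.2% rose. Of the related lists, genes of mitochondrial DNA and transcription fell in 6 of 10 and rose in 0, with Polg, the mitochondrial DNA polymerase, at -1.02 ± 0.15 SE. Translation factors fell in 6 of 16 and rose in 0, with the elongation factor gene Tufm at -0.78. Assembly and rRNA modification genes fell in 6 of 23 (26.1%) and rose in 1, and tRNA synthetases fell in 4 of 20 (20%) and rose in 0. These shares that fell were near that of all genes. Nuclear oxidative phosphorylation genes rose in 15 and fell in 11 of 77, with Ndufa1 at 1.89 and Ndufv1 at -0.89. Cytosolic ribosomal protein genes fell in 10 (11.9%) and rose in 2 of 84 (2.38%), with a median log2 fold change of -0.41. Myc was at 0.444 and 0.524 FPKM in mSSC, at 20.1 and 64.8 in idSG and at 26.1 and 42.7 in iSC. Tfam stood at 17.9 and 16.3 FPKM in mSSC and 12.6 and 13.6 in iSC (adjusted p = 0.0726).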

How the data were processed

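RNA-seq of 12 libraries was analysed, 2 in each of 6 groups named from the labels. The deposited values are FPKM that the authors computed with TopHat2 2.0.6 and Cuffdiff on mm9, per the submitters' processing notes. The version and scaling of Cuffdiff, and any use of strand, are not stated in the sources at hand. FPKM carry no read counts, so no counting interval was given.

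Repeated lines of 1 vehicle file (25, none of an Mrp gene) were counted once and copies of a symbol were summed. The 2 experiments were fitted apart with limma 3.58.1 in R 4.3.3 on log2(FPKM + 1), keeping genes whose average over the 6 libraries reached 1 FPKM. Group was the sole factor, which leaves 3 residual degrees of freedom, and eBayes ran with a trend. Calls needed an adjusted p under 0.05 by Benjamini-Hochberg across every gene tested. This fold change understates the change of low genes. An exact permutation p of 2 against 2 cannot go below 0.333, so none was computed. The fit was also run on simulated data with independent normal values and no shift shared by the genes of a library. That run therefore says nothing about such shifts in these libraries. Annotation was joined by symbol in Python 3.11.15.

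Named genes were the called members of largest change, 3 or 5 in each direction and subunit, averaging 5 FPKM or more and with groups that do not overlap, the most abundant members, those called in all 3 comparisons of an experiment or in opposite directions, a few members and regulators fixed by name, and up to 2 called genes each way of every related list. Not all of these are printed, and the genes of the overlap, exon and meiotic sentences and Mrpl43 in iSC against idSG were named after their values were seen. The members and lists were chosen with earlier results of these data known. Alternatives were other pseudocounts, filters, scalings, spreads and copies, a replicate block, and leaving out each library.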

Additional observations from a re-analysis of the deposited data

How the results depend on the processing

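The direction of the counts in RA with CHX held under both other scalings, and that of RA against vehicle did not. Quantile normalization gave 15 higher and 15 lower with RA, 2 higher in iSC against idSG and 14 higher in iSC against mSSC, and moved the share of calls that were higher from 18.8% to 50.0% with RA, from 12.5% to 28.6% in iSC against idSG and from 25.0% to 45.2% in iSC against mSSC. Median-ratio scaling moved it from 75.0% to 62.5% in idSG against mSSC. Mrpl37, lower with RA, stood at 0.00086 on the log2 scale after quantile normalization. With the spread of all 12 libraries the counts were 0 higher and 3 lower with RA. They were 23 and 12 in RA with CHX against vehicle, and 33 and 7 against RA. In the induction experiment they were 17 and 6 in idSG against mSSC, 4 and 31 in iSC against idSG, and 18 and 31 in iSC against mSSC. Without the filter, or without the trend, 2 were lower in iSC against idSG. Leaving out each library gave 3 to 5 higher and 19 to 28 lower with RA, 34 to 42 and 15 to 20 in RA with CHX against vehicle, 39 to 48 and 13 to 17 against RA, 0 to 8 and 1 to 3 in idSG against mSSC, 0 to 1 and 0 to 7 in iSC against idSG, and 2 to 9 and 2 to 21 in iSC against mSSC. The causes were not tested. Nothing in the labels pairs the libraries by replicate number. Deviations of same-numbered libraries correlated at -0.03 to 0.09 over all genes, which does not settle whether they were paired. The replicate block left 2 lower in iSC against idSG. Quantile normalization shifted the median of all genes by 0.11 in RA with CHX against vehicle and by -0.10 in idSG against mSSC. With 2 libraries a group, small changes are not detectable in the induction experiment, where replicates differed more.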
